A study of Caenorhabditis elegans with 6 samples.

Results

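Genes enriched in male sensory neurons of the nematode Caenorhabditis elegans were followed in an ung-1 mutant and in wild type N2, its common laboratory strain. The 10 genes are pkd-2, lov-1, klp-6, cil-7, cwp-1, cwp-2, cwp-3, cwp-4, cwp-5 and asic-2. Members were the probe sets whose single platform gene symbol is one of these names. All 10 genes had 1 probe set each, so 10 of the 22548 probe sets tested were described. The study compared 3 arrays of the ung-1 mutant with 3 arrays of wild type N2, hybridised with total RNA on Affymetrix C. elegans genome arrays. The mutated gene codes for the uracil-DNA glycosylase that starts base excision repair. The sample labels speak of a mutant, the design text of RNAi mutants. Allele, sex, age, culture conditions and the share of males were not stated in the labels or the design text.

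In C. elegans most animals are self-fertile hermaphrodites and males arise rarely. Males carry extra ciliated neurons, among them the CEM neurons of the head and the ray and hook neurons of the tail, which sense and respond to mates. These cells express the polycystins LOV-1 and PKD-2, a receptor and channel pair related to the human polycystic kidney disease proteins, and shed extracellular vesicles from their cilia. The cwp genes were named for being expressed together with the polycystins. The genes klp-6 and cil-7 are also used in the IL2 neurons, which both sexes have. In bulk RNA, fewer cells of a type and less RNA per cell cannot be told apart.

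None of the 10 genes passed limma's test between the mutant and N2, and the mutant and N2 values overlapped for all 10. At an adjusted p of 0.05 over all probe sets, 0 of the 10 passed, against 0% of all probe sets. At an unadjusted p of 0.05 the count was 1 of 10, asic-2, against 1.93% of all probe sets. In the whole series, 6.69% of probe sets had every mutant array on one side of every N2 array. Intensities are in arbitrary units, and each log2 fold change is the mutant less N2 in log2(intensity + 16), a scale that understates the change of dim probe sets. The targeted gene, ung-1, read 54.87, 55.33 and 47.67 in the mutant and 235.93, 254.14 and 295.57 in N2, with no overlap. Its adjusted p over all probe sets in limma was 0.0765. The precision of every value is limited by the number of arrays.

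The polycystin genes came first in the comparison. The channel gene pkd-2 (188076_s_at) read 68.70, 50.05 and 48.12 in the mutant and 50.62, 69.86 and 43.44 in N2. The genotypes overlapped almost fully, with mutant replicate 1 and N2 replicate 2 the high arrays. The log2 fold change of pkd-2 was 0.026 (SE 0.20, limma adjusted p = 0.999), and its 95% confidence interval ran from -0.45 to 0.50. This probe set can match several transcripts, as its identifier ending marks. The polycystin-1 related receptor gene lov-1 (194052_at) read 111.22, 90.55 and 103.83 in the mutant and 126.82, 126.01 and 101.76 in N2. N2 replicate 3 lay among the mutant arrays, while the other two N2 arrays lay above them. The log2 fold change of lov-1 was -0.19 (SE 0.16, interval -0.55 to 0.18, adjusted p in limma 0.999).

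The next genes serve the cilium and its vesicles. The kinesin-3 motor gene klp-6 (187902_at), needed for ciliary placement of PKD-2, read 36.05, 34.47 and 29.83 in the mutant and 41.22, 48.57 and 33.01 in N2. N2 replicate 3 again lay within the mutant range. Its log2 fold change was -0.20 (SE 0.16, interval -0.58 to 0.18). The gene cil-7 (181991_s_at), whose protein acts in vesicle formation, read 17.86, 22.08 and 18.31 in the mutant and 22.92, 31.44 and 15.66 in N2. The N2 arrays held both the highest and the lowest value. The fold change was -0.13 on the log2 scale (SE 0.19, interval -0.57 to 0.30), and adjusted p was 0.999 in limma for both genes. The cil-7 probe set can match several transcripts, and its value in mutant replicate 2 was restored from a spreadsheet date.

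The genes cwp-1, cwp-2 and cwp-3 follow each other directly in the RefSeq gene order of assembly WBcel235. All 3 had N2 replicate 2 as the highest array and mutant replicate 3 as the lowest, and their pairs correlated at 0.57 to 0.78 over the 6 arrays. This was not particular to neighbouring genes. klp-6 and asic-2, on other chromosomes, had the same highest and lowest arrays and correlated at 0.94. The median over all 45 pairs of the genes followed here was 0.63. cwp-1 (185609_at) read 23.87, 25.47 and 16.02 in the mutant and 27.12, 28.16 and 16.22 in N2. In each genotype replicate 3 was the low array, with the genotypes almost level there. Its log2 fold change was -0.071 (SE 0.19, interval -0.52 to 0.38), and the values 16.02 and 27.12 were restored from spreadsheet dates. cwp-2 (185653_at) read 72.88, 91.57 and 68.51 in the mutant and 88.30, 187.23 and 86.80 in N2. N2 replicate 2 stood alone above the other 5 arrays. The log2 fold change was -0.48 (SE 0.29, interval -1.16 to 0.21), and -0.15 without N2 replicate 2. cwp-3 (180708_at) read 75.03, 87.39 and 64.61 in the mutant and 94.99, 98.68 and 81.44 in N2. The overlap rested on mutant replicate 2 and N2 replicate 3, and the log2 fold change was -0.24 (SE 0.16, interval -0.61 to 0.14). All 3 had an adjusted p of 0.999 in limma.

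The other cwp genes lie apart in the genome. cwp-4 (190271_at) read 207.34, 109.27 and 213.04 in the mutant and 150.12, 168.40 and 168.18 in N2. Mutant replicate 2 was the lowest array and the other two mutant arrays the highest, so the mutant spread enclosed N2. The log2 fold change was 0.061 (SE 0.25, interval -0.54 to 0.66). cwp-5 (179980_at) read 165.30, 141.71 and 148.12 in the mutant and 149.37, 184.25 and 133.68 in N2, with N2 again holding the extremes. Its log2 fold change was -0.026 (SE 0.16, interval -0.42 to 0.36), and adjusted p in limma was 0.999 for both.

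The largest difference among the 10 was that of asic-2 (191981_at), a channel gene of the degenerin and acid-sensing family. It read 94.07, 120.02 and 81 in the mutant and 198.12, 263.64 and 117.80 in N2. N2 replicate 3 fell just below mutant replicate 2, and the other two N2 arrays lay above every mutant array. The means were 98.4 ± 19.9 in the mutant and 193 ± 73.0 in N2 (SD, n = 3 each). The log2 fold change was -0.82 (SE 0.29, interval -1.51 to -0.13), with an unadjusted p of 0.0257 and an adjusted p of 0.999 in limma. It was -0.58 without N2 replicate 2 and -1.11 without N2 replicate 3. The unadjusted p was above 0.05 under 4 of 17 alternatives, each leaving out 1 array. In limma, leaving out mutant replicate 1 gave 0.0657 and mutant replicate 3 gave 0.0696, while leaving out N2 replicate 1 gave 0.0707 and N2 replicate 2 gave 0.0725.

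**Figure D1:**
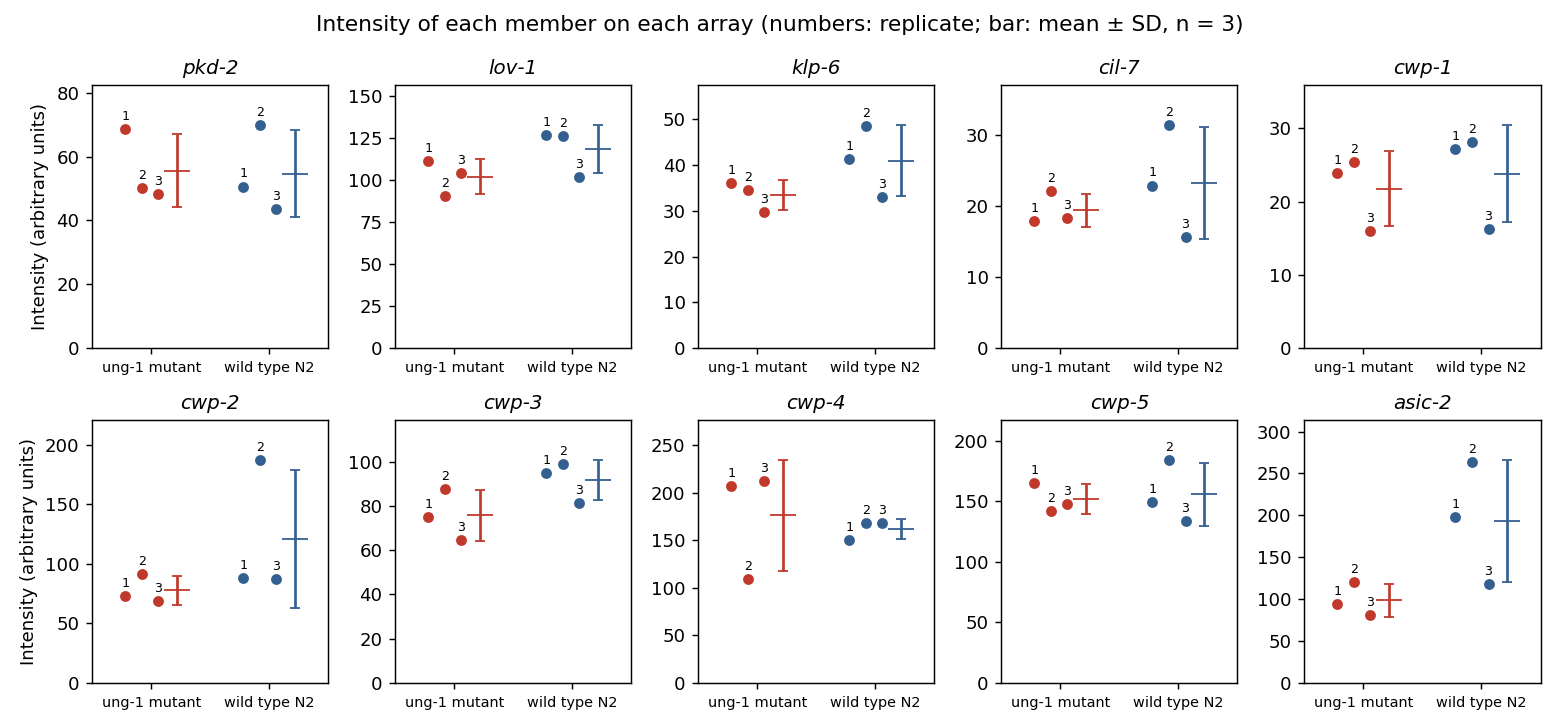
Intensity (arbitrary units) of each of the 10 genes on each array, ung-1 mutant left and wild type N2 right; points are arrays numbered by replicate, and bars are mean ± SD (n = 3). The genotypes overlap in every panel, and N2 replicate 2 is the highest array in 8 of 10 panels.

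**Figure D2:**
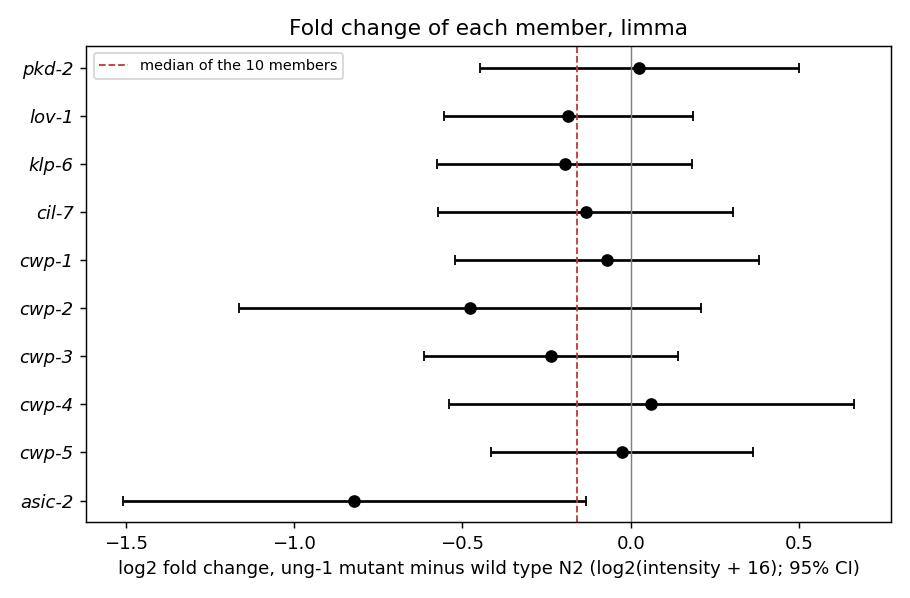
Log2 fold change of each gene, ung-1 mutant minus wild type N2, from limma, with 95% confidence intervals; the dashed line is the median of the 10 genes. The interval of asic-2 alone lies below 0, with an adjusted p of 0.999.

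The fold changes of the 10 genes were negative for 8 and positive for 2, with a median of -0.16. Over all probe sets, 55.5% were negative and the median was -0.027. Of the 10 changes, 5 were smaller in size than their own standard error. The median was -0.045 without N2 replicate 2 and -0.28 without N2 replicate 3.

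The same arrays tended to be high or low across the genes. N2 replicate 2 was the highest of the 6 arrays for 8 of the 10 genes, all but lov-1 and cwp-4. It was the highest array for 31.2% of all probe sets, and for 37.0% of those with means below the median probe set, where 9 of the 10 genes lie. With each array centred on its median it was the highest for 5 of the 10, against 23.2% of all probe sets, and with quantile normalization for 6, against 24.4%. The lowest array was mutant replicate 3 for 5 genes, against 27.6% of all probe sets, and N2 replicate 3 for 3 genes, against 10.3%. Relative to each gene's mean, the median of the 10 was -0.00038, -0.080 and -0.17 in the mutant, by replicate, and 0.093, 0.27 and -0.14 in N2. The N2 arrays thus held the highest value and spanned the wider range. N2 replicate 2 also had the highest median intensity of the 6 arrays, 167.85, and the lowest limma array weight, 0.458. Its part in the result was not tested.

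Markers of other cell types had other orders of arrays. The 15 genes listed as pan-neuronal markers had their lowest list median on N2 replicate 2, at -0.51, where the 10 genes had their highest. They ranged from -0.45 to 0.42 on mutant arrays and from -0.51 to 0.49 on N2 arrays. N2 replicate 2 was the highest array for 0 of these 15 genes. Most of these markers read above all 10 genes in mean, such as egl-3 with 3680 in the mutant and 4576 in N2. Cell type and brightness thus cannot be told apart in this contrast. In the order of replicates, the 27 sperm markers measured had medians of 0.39, 0.65 and -0.86 in the mutant against -0.79, 0.38 and 0.18 in N2. Most of them are msp genes, a family read by probe sets that can match several transcripts, so these medians are not those of separate markers. The 15 germline and oocyte markers ranged from -0.54 to 0.34 in the mutant and from -0.18 to 0.31 in N2. A high N2 replicate 2 was not particular to the 10 genes. The 29 degenerin and acid-sensing channel genes measured, asic-2 among them, also had their highest median there, at 0.12. Their lowest was on N2 replicate 3, at -0.057, and N2 replicate 2 was the highest array for 12 of the 29. The 3′ over 5′ ratio of the GAPDH controls, which reflects RNA integrity, ran from 5.01 to 8.77 in the mutant and from 8.30 to 11.8 in N2. That of the actin controls ran from 2.89 to 4.44 in the mutant and from 3.72 to 5.23 in N2. Among the N2 arrays, replicate 2 was the lowest by GAPDH, at 8.30, and the highest by actin, at 5.23. The part of these differences in the result was not tested.

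**Figure D3:**
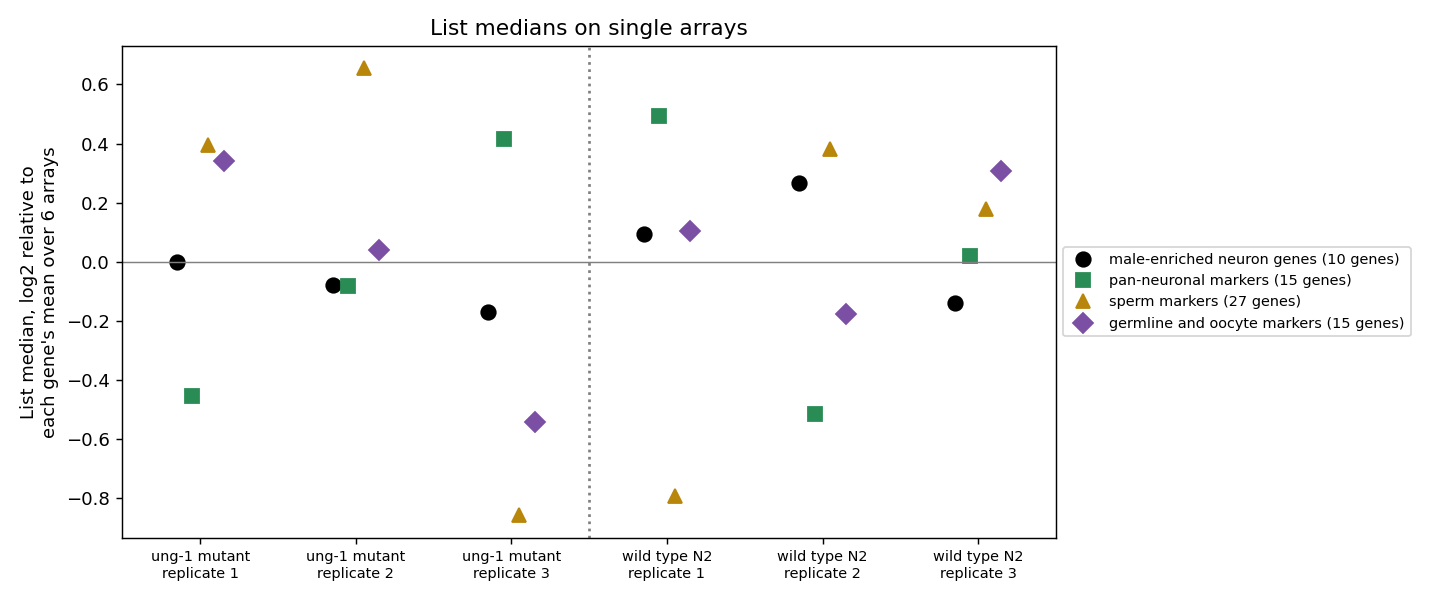
Median of each gene list on each array, in log2 relative to each gene's mean over the 6 arrays, ung-1 mutant left of the dotted line and wild type N2 right of it. On N2 replicate 2 the 10 male-enriched neuron genes stand at 0.27 and the 15 pan-neuronal markers at -0.51. Most of the pan-neuronal markers are also brighter than the 10 genes.

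Dimness was set against the spread between arrays. The mean intensity of 9 of the 10 probe sets lay below the median probe set, 166, with cwp-4 just above it. The dimmest were cil-7 with a mean of 21.4 and cwp-1 with 22.8, at the 1.51 and 1.72 percentiles of all probe sets. klp-6, at 37.2, stood at the 5.29 percentile and pkd-2, at 55.1, at the 12.5 percentile. These are readings of probe sets, not levels that can be ordered between genes, and their distance from background is unknown. The pooled SD within genotypes, on the log2 scale, had a median of 0.22 over the 10 and of 0.25 over all probe sets, and 7 of the 10 lay below that of all probe sets. The widest spreads were those of asic-2 and cwp-2, both 0.42, and of cwp-4, 0.35. Among all probe sets as dim as the 4 dimmest genes, with means up to 80.8, the median SD was 0.16, and those 4 genes had a median of 0.22. Among probe sets with means from 80.8 to 165.8 the order was reversed. The median SD there was 0.22 over all and 0.17 over the 5 genes in that range. The brighter cwp-4, at 0.35, lay near the median of 0.33 of probe sets with means from 165.8 to 487. The offset of 16 is close in size to the readings of cil-7 and cwp-1 and compresses their changes. With an offset of 1 the log2 fold changes were -0.21 for cil-7 and -0.11 for cwp-1, and that of asic-2 was -0.91.

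**Figure D4:**
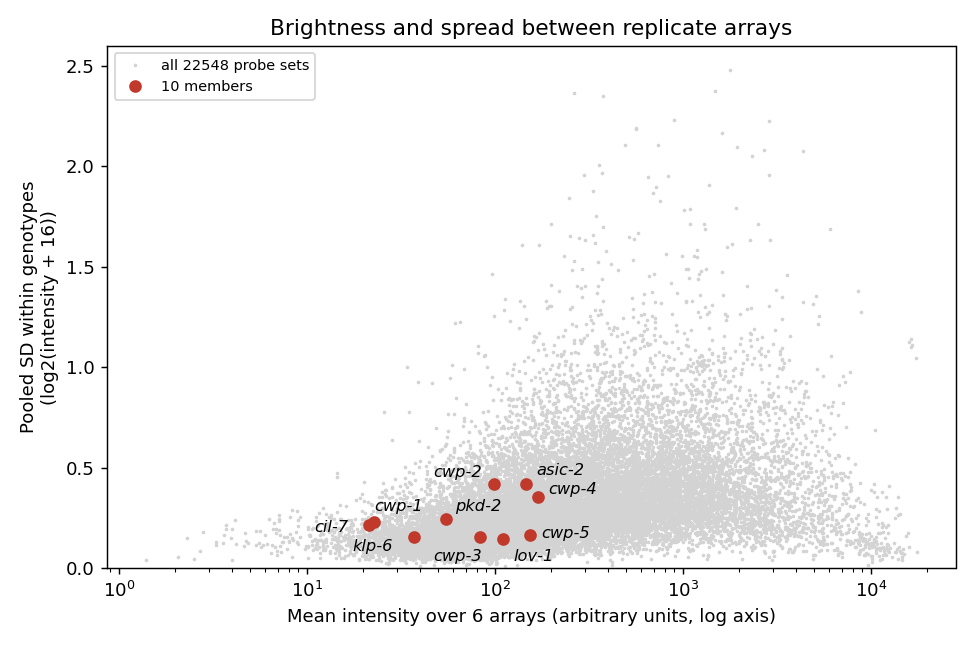
Mean intensity over 6 arrays (log axis) against the pooled SD within genotypes on the scale log2(intensity + 16), for all 22548 probe sets in grey and the 10 genes in red. The genes lie at means from 21.4 to 169, with asic-2 and cwp-2 at the widest spread of the 10, 0.42.

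Genes of the same pathways were counted from fixed lists, with 1 probe set per gene, the brightest. Of 23 measured partners of the polycystins and of male ciliated neurons, 0 passed the adjusted threshold in limma and 0 the unadjusted one, with 14 negative and 9 positive and a median of -0.021. The casein kinase II catalytic subunit gene kin-3 had -0.34 (SE 0.15), and the tubulin deglutamylase gene ccpp-1 had 0.51 (SE 0.24). Of 16 regulators of male fate and the male tail, 1 had an unadjusted p under 0.05, the sex determination gene fem-1 at -0.43 (SE 0.17). In this list 10 were negative and 6 positive, with a median of -0.083. The male tail regulator mab-3 read 63.45, 44.12 and 53.53 in the mutant and 73.16, 79.39 and 53.86 in N2 (-0.28, SE 0.19). Its N2 values lay partly within the mutant range, with replicate 2 the highest array. In the other direction, ram-2, a gene of ray morphology, had 0.66 (SE 0.44), with N2 replicate 2 far below the other 5 arrays. The gene her-1, whose secreted protein promotes male fate, had 0.19 (SE 0.16). None of these values passed the adjusted threshold.

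The 34 intraflagellar transport genes measured, which build all sensory cilia, had a median of -0.047, with 20 negative and 14 positive and 0 past either threshold. The heterotrimeric kinesin-II subunit gene klp-20 had -0.43 (SE 0.26), and the small GTPase gene arl-6 had 0.27 (SE 0.19). The 15 TRP channel genes, the family of pkd-2, had a median of 0.010, with 7 negative and 8 positive and 0 past either threshold. In the family of asic-2, 29 degenerin and acid-sensing channel genes were measured, with 21 negative and 8 positive and a median of -0.076. Only asic-2 among them had an unadjusted p under 0.05, and egas-1 followed at -0.50 (SE 0.23) with 196.21, 297.63 and 239.63 in the mutant and 299.04, 455.77 and 309.47 in N2. For egas-1 every mutant array lay below every N2 array, as for 4.38% of all probe sets in that direction. In this family 5 of 29 genes lay apart in the same direction. The gaps were narrow for acd-4 (highest mutant array 66.93, lowest N2 array 66.95), egas-4 (66.6 and 66.66) and egas-1 (297.63 and 299.04). They were wider for deg-1 (91.73 and 97.74) and egas-2 (53.66 and 55.37). The family members acd-5, at 0.32 (SE 0.15), and acd-1, at 0.47 (SE 0.28), were higher in mean in the mutant without passing.

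The probe sets most like the 10 genes were those with the highest Pearson correlation to the median of the 10 over the 6 arrays. They were T28C12.6 (r = 0.994), the chemoreceptor-like gene srt-11 (0.991), fbxb-111 (0.988), the P-type ATPase gene catp-5 (0.988) and R11.3 (0.987). Of the 15851 probe sets searched, 3.44% had a correlation above 0.9. The points share arrays and their overall brightness, so these values describe only this order of arrays. Among the 10 genes, 39 of the 45 pairs correlated positively, with a median of 0.63. Pairs of other probe sets were not counted, so whether this exceeds the share among them is unknown. cwp-4 was the gene that departed, at -0.18 against the median of the other 9.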

How the data were processed

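The deposited values are linear intensities, 1 for each of 22625 probe sets on each array. The labels do not say how the authors summarised, corrected or scaled them, and no normalization was added. Of 1364 whole numbers from 10959 upwards, 1361 equal spreadsheet dates. These were restored as day.month (631 cells) or month.year (730 cells), giving 1.17 to 31.12. Probe sets were named from the platform annotation and matched to RefSeq genes, and 77 control probe sets were left out. For the other 22548, limma 3.58.1 under R 4.3.3 fitted log2(intensity + 16) by genotype. Its moderated two-sided p-values were adjusted by Benjamini-Hochberg over all probe sets, with a threshold of 0.05. The fit was tested on simulated data for bias, false calls and sign, which it met. A first criterion, on the share of large changes called, was not met and was replaced by these. The simulated noise was independent between probe sets, so arrays with shared effects, as here, were not covered. Groups and replicate numbers come from the sample titles, where replicates are named biological. No label states separate cultures, so p-values measure the spread between these samples.

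All members were named. From each other list, at most 2 genes per direction with the smallest p could be named, and the 5 probe sets most like the members were taken among those above the 25th percentile of mean intensity. The gene egas-1 fell under this rule, and unc-119 was chosen after its values were seen. The members and lists were chosen with earlier results of these data known. Alternatives were the offset, a filter on dim probe sets, the treatment of date cells, normalization, the variance model, array weights, probe sets that match several transcripts, a replicate block and leaving out each array. Summaries used Python 3.11.15 with pandas 2.3.3 and numpy 2.4.6, and plots used matplotlib 3.10.9.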

Additional observations from a re-analysis of the deposited data

How the results depend on the processing

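Under all 17 alternatives, 0 of the genes passed the adjusted threshold in limma, and the median fold change stayed negative, between -0.28 and -0.045 with single arrays left out and between -0.21 and -0.098 under the other settings. Neither the variance model nor a block on the replicate number can change a fold change in this balanced design. The median of -0.16 was thus fixed under both, and no call changed. Same-numbered arrays had deviations that correlated at -0.19, 0.090 and 0.10, and 3 of 6 arrays correlated best with their own number, so the numbers were not taken to pair the samples. The groups were apart, in either direction, for 0 to 6 genes with single arrays left out. The count was 6 without N2 replicate 3 and 4 without mutant replicate 2, against 19.7% and 12.4% of all probe sets. The 6 were all lower in the mutant, and so were the 4 except cwp-4, which was higher. The count was 0 without mutant replicate 1 or 3, against 22.1% and 19.3%. It was also 0 without N2 replicate 1 or 2, against 11.3% and 11.97%. Fewer arrays make a separation easier by construction. asic-2, lov-1, klp-6, cwp-2 and cwp-3 stayed negative under every alternative that held them, but with sizes that depended on single arrays. With 1 array left out, asic-2 ranged from -1.11 to -0.58, lov-1 from -0.28 to -0.11 (without N2 replicate 3 and mutant replicate 2) and klp-6 from -0.30 to -0.10 (without N2 replicates 3 and 2). cwp-2 ranged from -0.64 to -0.15 (without N2 replicates 3 and 2) and cwp-3 from -0.33 to -0.15 (without mutant replicates 2 and 3). The filter on dim probe sets dropped 6 of the 10. Signs turned with the values as deposited for cil-7 (3.22) and cwp-1 (0.068), and with date cells missing for cwp-1 (0.11). cwp-5 turned to 0.018 with quantile normalization and 0.017 with median centring, and cwp-4 to -0.11 with array weights. With single arrays left out, cil-7 ranged from -0.28 to 0.011, cwp-1 from -0.22 to 0.044, cwp-4 from -0.090 to 0.35, cwp-5 from -0.12 to 0.090 and pkd-2 from -0.10 to 0.18. The turned values of cil-7 and cwp-1 as deposited come from the date numbers; for the others the cause was not tested. Arrays carry no detection calls here, so how far the dim probe sets lie above background is unknown.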

Other observations

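The neuronal gene unc-119, a member of the list of polycystin and male ciliated neuron partners, had 1 array far from the rest. Its probe set read 71.96, 66.34 and 88.84 in the mutant and 81.60, 70.21 and 1205.54 in N2, the last on N2 replicate 3. Its log2 fold change of -1.25 (SE 0.96, limma adjusted p = 0.999) rests on that array.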
